A study of Mus musculus with 14 samples.

Results

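Transcripts of the interferon response and of antigen presentation were followed through 14 mouse hearts. The set holds 40 genes taken by name: 5 transcription factors (Irf1, Irf7, Irf8, Irf9, Stat2), 3 sensors of foreign nucleic acid (Ddx58, Ifih1, Zbp1), 14 effectors, the inhibitor Usp18, 6 GTPases, 6 genes of class I presentation and 5 of class II presentation. Each name matched 1 of the 55487 counted genes, and all 40 were among the 15528 genes that passed the filter on low counts. The hearts came whole from untreated male C57BL/6 mice, with 4 KO and 4 WT hearts at 15 months and 3 KO and 3 WT hearts at 2 months. KO hearts had the genotype Myh6-Cre-Sqstm1fl/fl, in which a Cre driven from the Myh6 promoter removes floxed Sqstm1 in cardiac muscle cells, while fibroblasts, vessels and immune cells of the same heart keep the gene. WT hearts were labelled wildtype, with neither Cre nor floxed alleles named, so carrying Cre and lacking Sqstm1 cannot be told apart. Sqstm1 encodes p62, an autophagy receptor that also binds Keap1. The study's title is about Nrf2 protein and oxidative stress, and interferon is not in it.

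Interferons are secreted proteins that act through Jak kinases and Stat factors. Type I interferon activates a complex holding Stat2 and Irf9 that binds a promoter element called the ISRE, and interferon gamma acts on promoters through an element called the GAS. The induced genes include sensors of viral RNA, proteins that block viral replication, GTPases that attack intracellular vacuoles, and the machinery that shows peptides to T cells. Class I molecules carry peptides from inside the cell and are made by most cells. Class II molecules are made mainly by dendritic cells, B cells and macrophages under the transactivator Ciita, and their promoters hold a Y box. In hearts, low levels of these transcripts come from vessel, immune and muscle cells together.

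The promoters of the set were read first, for the elements named above. RefSeq promoter windows of 300 bases (GRCm38.p6) were found for 31 of the 40 members. Both strands were searched for the ISRE as GAAA, any 2 bases and GAAA, the GAS as TTCNNNGAA and the Y box as GATTGG. The ISRE letters were in 17 of 31 members (54.8%), against 3.44% of all 32851 windows. Counted by window, since some members have several, they were in 18 of 38 (47.4%). By member they were in 5 of 5 GTPases, 8 of 12 effectors, 2 of 2 sensors, 1 of 5 transcription factors, 1 of 5 class I genes and 0 of 2 class II genes. The GAS letters were in 8 members (25.8%) and 8 of 38 windows (21.1%), against 8.3% of all windows. The Y box letters were in 9 members (29.0%) and 10 of 38 windows (26.3%), against 16.1% of all windows, and by member in 4 of 5 class I and 2 of 2 class II genes. The ISRE and GAS letters can overlap by a few bases, as they do in the Bst2 window. A match is only a match of letters, and none of these data measured binding. Stretches of 60 bases are shown for 7 members with the ISRE, because they span effectors, GTPases and class I. Capitals mark the matched letters, which appear as TTTC, 2 bases and TTTC where the match is on the other strand. The stretches lie at Ifit1 chr19:34640755-34640814 (plus), Isg15 chr4:156200867-156200926 (minus), Rsad2 chr12:26456543-26456602 (minus), Bst2 chr8:71537573-71537632 (minus), Gbp3 chr3:142559966-142560025 (plus), Igtp chr11:58199492-58199551 (plus), B2m chr2:122147518-122147577 (plus).
Ifit1: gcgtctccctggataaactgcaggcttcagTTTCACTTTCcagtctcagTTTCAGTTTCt
Isg15: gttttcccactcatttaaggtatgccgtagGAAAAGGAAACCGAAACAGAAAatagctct
Rsad2: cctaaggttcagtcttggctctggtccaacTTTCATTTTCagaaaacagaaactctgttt
Bst2: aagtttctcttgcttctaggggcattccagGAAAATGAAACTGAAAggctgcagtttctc
Gbp3: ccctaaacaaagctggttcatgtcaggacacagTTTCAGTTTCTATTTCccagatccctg
Igtp: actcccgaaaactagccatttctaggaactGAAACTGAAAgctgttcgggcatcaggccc
B2m: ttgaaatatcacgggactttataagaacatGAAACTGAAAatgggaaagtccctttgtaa
Isg15 holds 3 overlapping matches, and Ifit1, Bst2 and Gbp3 hold 2 each. The matches nearest the start of each stretch begin 34 to 139 bases upstream of the RefSeq start, in Igtp and B2m at the ends of that range. The same form is given for a pair of class II genes, whose capitals mark the Y box, at H2-Aa chr17:34287843-34287902 (minus) and H2-Eb1 chr17:34305777-34305836 (plus).
H2-Aa: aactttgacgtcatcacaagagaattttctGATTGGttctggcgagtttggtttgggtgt
H2-Eb1: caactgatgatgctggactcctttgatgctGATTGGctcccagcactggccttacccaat
The Y box letters begin 49 bases upstream of the start in H2-Aa and 60 bases upstream in H2-Eb1.

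Total counts were 20218992 to 30404416 per library, and 27.5% to 46.0% of them fell on mitochondrially encoded genes. Sqstm1 was at 14.6 to 37.0 CPM (counts scaled to a common library total by TMM) in KO libraries and at 139 to 238 CPM in WT libraries, with no overlap. A pair of libraries stood apart: WT replicate 1 at 2 months held atrial transcripts (6 markers summing to 1728 CPM, against 91.7 and 129 CPM in the other WT libraries of that age), and KO replicate 1 at 15 months had the highest mitochondrial share, 46.0%. Smaller atrial sums above their groups were found at 15 months in KO replicate 1 (151 CPM, against 9.18 to 16.2 CPM) and WT replicate 1 (285 CPM, against 22.6 to 81.2 CPM). The 10 markers of heart muscle summed to 56482 to 107772 CPM. Markers of leukocytes were scarce: 2 of 13 T and NK cell markers, 4 of 9 dendritic, 5 of 9 B cell and 3 of 5 neutrophil markers passed the filter, and all 13 T and NK markers summed to 1.37 to 3.30 CPM. All 14 macrophage markers passed and summed to 113 to 225 CPM. In whole tissue, fewer cells of a type and less RNA per cell cannot be told apart. Nothing in the labels says that hearts of 1 group were handled separately, so each p-value here speaks only to spread among the libraries at hand, which may be technical.

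The highest levels belonged to B2m, Ifitm3 and Cd74. Per exon length, B2m, the light chain of class I, had the highest level, with a mean of 147 RPKM over the 14 libraries (range 81.4 to 227). Ifitm3, which blocks entry of viruses into cells, followed at 43.9 RPKM, then Cd74, the invariant chain of class II, at 32.9 RPKM, H2-D1 at 30.6 RPKM and H2-K1 at 14.3 RPKM. At the foot stood the sensor Zbp1 at 0.241 RPKM and Ciita at 0.144 RPKM. Of the 39 pairs of neighbours in this order, the ranges over libraries were apart for B2m and Ifitm3 and for H2-D1 and H2-K1, and overlapped in the others. Counts ran from 9 reads of Zbp1 in its lowest library to 6296 reads of B2m in its highest. The ubiquitin-like modifier Isg15 varied most, with its highest library 7.73 times its lowest, and Irf9 least, at 1.55 times. H2-K1 and H2-D1 are related genes of 1 family, as are the Gbp genes, and how the counting treated reads shared by such genes is not given in the sources used here.

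**Figure D1:**
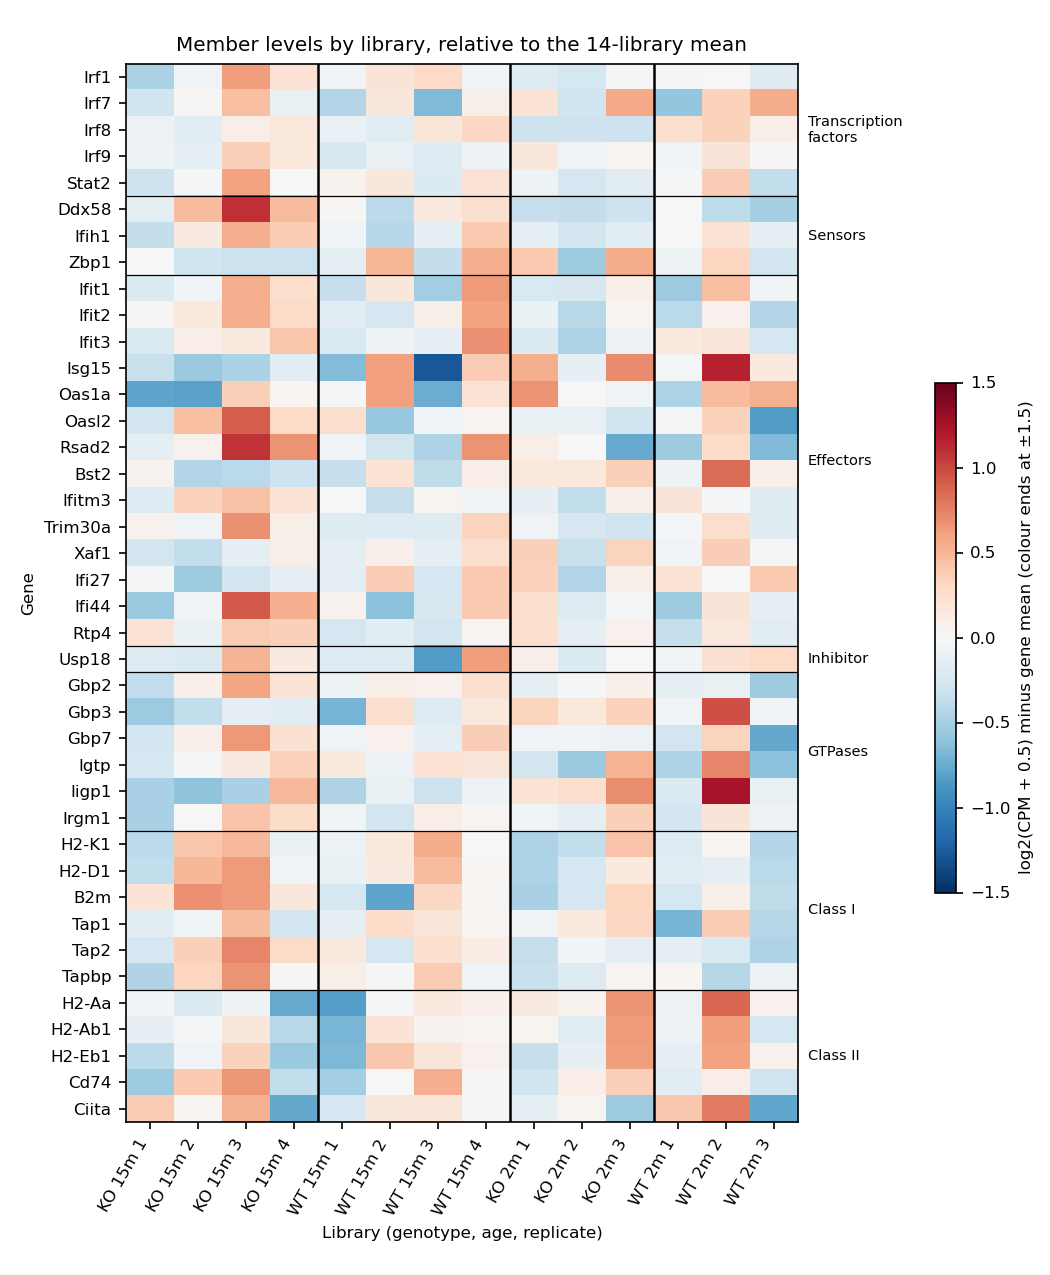
Levels of the 40 members (rows, by role) in the 14 libraries (columns, by group and replicate), as log2(CPM + 0.5) minus the gene's mean over all libraries; red is above and blue below that mean. The most rows above the mean are in WT replicate 4 at 15 months (34 of 40). WT replicate 2 at 2 months (33) and KO replicate 3 at 15 months (32) follow. No group of columns is of 1 colour throughout.

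Hearts of the same group varied widely. On the log2 scale the median over the members was 0.34 for the SD within groups and 0.38 for the widest difference between group means. KO replicate 3 at 15 months was the highest of all 14 libraries for 19 members, WT replicate 2 at 2 months for 9, WT replicate 4 at 15 months for 5 and KO replicate 3 at 2 months for 4. These libraries were high in different members. KO replicate 3 at 15 months led for 6 effectors, 4 class I genes, 3 GTPases, 3 transcription factors, 2 sensors and 1 class II gene. That library also had the lowest mitochondrial share (27.5%), the highest endothelial sum (1511 CPM, against 439 CPM in the lowest library of its group) and the highest dendritic sum (26.5 CPM, against 15.1 CPM in the lowest). Most reads of the dendritic markers over the 14 libraries fell on 1 gene, Zbtb46 (5056 reads, against 564 for Clec10a, the next). WT replicate 2 at 2 months led for 3 effectors, 3 GTPases, 2 class II genes and 1 transcription factor, and its endothelial sum of 426 CPM lay inside its group's range of 403 to 550 CPM. The part of these marker levels in the members' levels was not tested.

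At 15 months no member passed the test between genotypes. Of the 40 members, 0 passed an adjusted p of 0.05 (edgeR quasi-likelihood test, Benjamini-Hochberg adjusted over all 15528 genes), against 1 of all genes (0.00644%), which was Sqstm1. DESeq2 and limma voom also called 0 members. At an unadjusted p under 0.05 stood 3 members, all higher in KO, against 1.82% of all genes; 0 were lower, against 2.14% (3.97% in all). The median log2 fold change of KO over WT was 0.09 over the members and 0.01 over all genes tested, with 26 members above 0, against 51.7% of genes, and 14 below, against 48.3%. In 0 members were the KO and WT hearts free of overlap, against 0.76% of genes with KO above WT and 1.23% with KO below.

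The 3 members with the smallest unadjusted p were B2m, Ddx58 and Rtp4. B2m was at 139.7, 195, 189.5 and 136 CPM in KO hearts and at 101, 70.0, 151 and 122 CPM in WT hearts at 15 months. A single WT heart, replicate 3, lay within the KO values. The log2 fold change was 0.57 (SE 0.23, adjusted p = 0.999, edgeR). Ddx58, which encodes the viral RNA sensor RIG-I, was at 7.61, 11.96, 18.7 and 11.9 CPM in KO hearts and at 8.58, 6.35, 9.45 and 10.1 CPM in WT hearts, a log2 fold change of 0.55 (SE 0.23, adjusted p = 0.999, edgeR). Here 3 of 4 KO hearts were above all WT hearts, and KO replicate 1 was inside the WT values. Rtp4, an interferon-induced gene, was at 5.83, 4.55, 6.59 and 6.44 CPM in KO hearts and at 4.03, 4.35, 3.96 and 5.09 CPM in WT hearts; the log2 fold change was 0.43 (SE 0.17, adjusted p = 0.999, edgeR). The next in order of p were Ifitm3 at a log2 fold change of 0.31 (SE 0.15), Irf9 at 0.25 (SE 0.13) and Ifi27 at −0.37 (SE 0.21). Beside these values, 9 of 10 endothelial, 9 of 9 fibroblast and 12 of 14 macrophage markers were above 0 in KO over WT at 15 months (medians 0.53, 0.42 and 0.21, 0 called), and their part was not tested. Rtp4 and B2m overlap an annotated gene on the other strand (Masp1 and Patl2), and the strand setting of the counting is not given in the sources used here.

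At 2 months the result was the same in count. Of the 40 members, 0 passed the test (edgeR), against 1 of all genes (0.00644%), and DESeq2 and limma voom also called 0 members. At an unadjusted p under 0.05 stood 1 member, lower in KO, against 2.02% of all genes; 0 were higher, against 1.17% (3.18% in all). The median log2 fold change was −0.02 over the members and 0.00 over all genes, with 18 members above 0, against 49.7% of genes, and 22 below, against 50.3%. KO hearts lay entirely below WT hearts in 2 members, against 3.72% of all genes, and entirely above in 0 members, against 4.43%.

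Irf8, a transcription factor of macrophages and dendritic cells, was the member with the smallest p. It was at 2.88, 2.88 and 2.87 CPM in KO hearts and at 4.46, 4.84 and 3.98 CPM in WT hearts at 2 months. All 3 KO hearts were below all 3 WT hearts, and the log2 fold change was −0.62 (SE 0.19, adjusted p = 0.9997, edgeR). At 15 months the same gene was at 3.45, 3.23, 4.003 and 4.16 CPM in KO hearts and at 3.41, 3.26, 4.25 and 4.72 CPM in WT hearts, where the groups overlapped. The difference between the KO effects at the 2 ages was 0.54 (SE 0.26, adjusted p = 0.99985, edgeR). The macrophage markers stood lower in KO hearts at 2 months in 14 of 14 genes, with a median of −0.31 (log2) and 0 called, and summed to 143 to 174 CPM in KO hearts and 169 to 225 CPM in WT hearts. The 4 tested dendritic markers had a median of −0.58, and the 9 fibroblast markers, all below 0, a median of −0.70, with 0 called in either list. The 5 tested B cell markers were all above 0 (median 0.31), and the 10 endothelial markers had a median of 0.06. WT replicate 1, which held atrial transcripts, had the highest macrophage (225 CPM) and fibroblast sums (2571 CPM, against 1614 and 946 CPM in the other WT hearts). The part of these lists in the Irf8 values was not tested. The gene overlaps a predicted gene, Gm20388, on the same strand.

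The other 2-month member without overlap was Ifih1, which encodes the RNA sensor MDA5, at 9.95, 9.04 and 9.83 CPM in KO hearts and at 11.1, 12.8 and 10.1 CPM in WT hearts, a log2 fold change of −0.24 (SE 0.24). At 15 months Ifih1 was at 8.52, 12.2, 16.4 and 14.6 CPM in KO hearts and at 10.6, 8.06, 10.1 and 14.7 CPM in WT hearts, where the groups overlapped. The members next to Irf8 by p at this age were Tap1, the first chain of the class I peptide transporter, at a log2 fold change of 0.37 (SE 0.29), Ciita at −0.63 (SE 0.52), Ifit3 at −0.29 (SE 0.26), Gbp2 at 0.23 (SE 0.21) and Trim30a at −0.23 (SE 0.23). None of these had an adjusted p below 0.999 (edgeR).

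**Figure D2:**
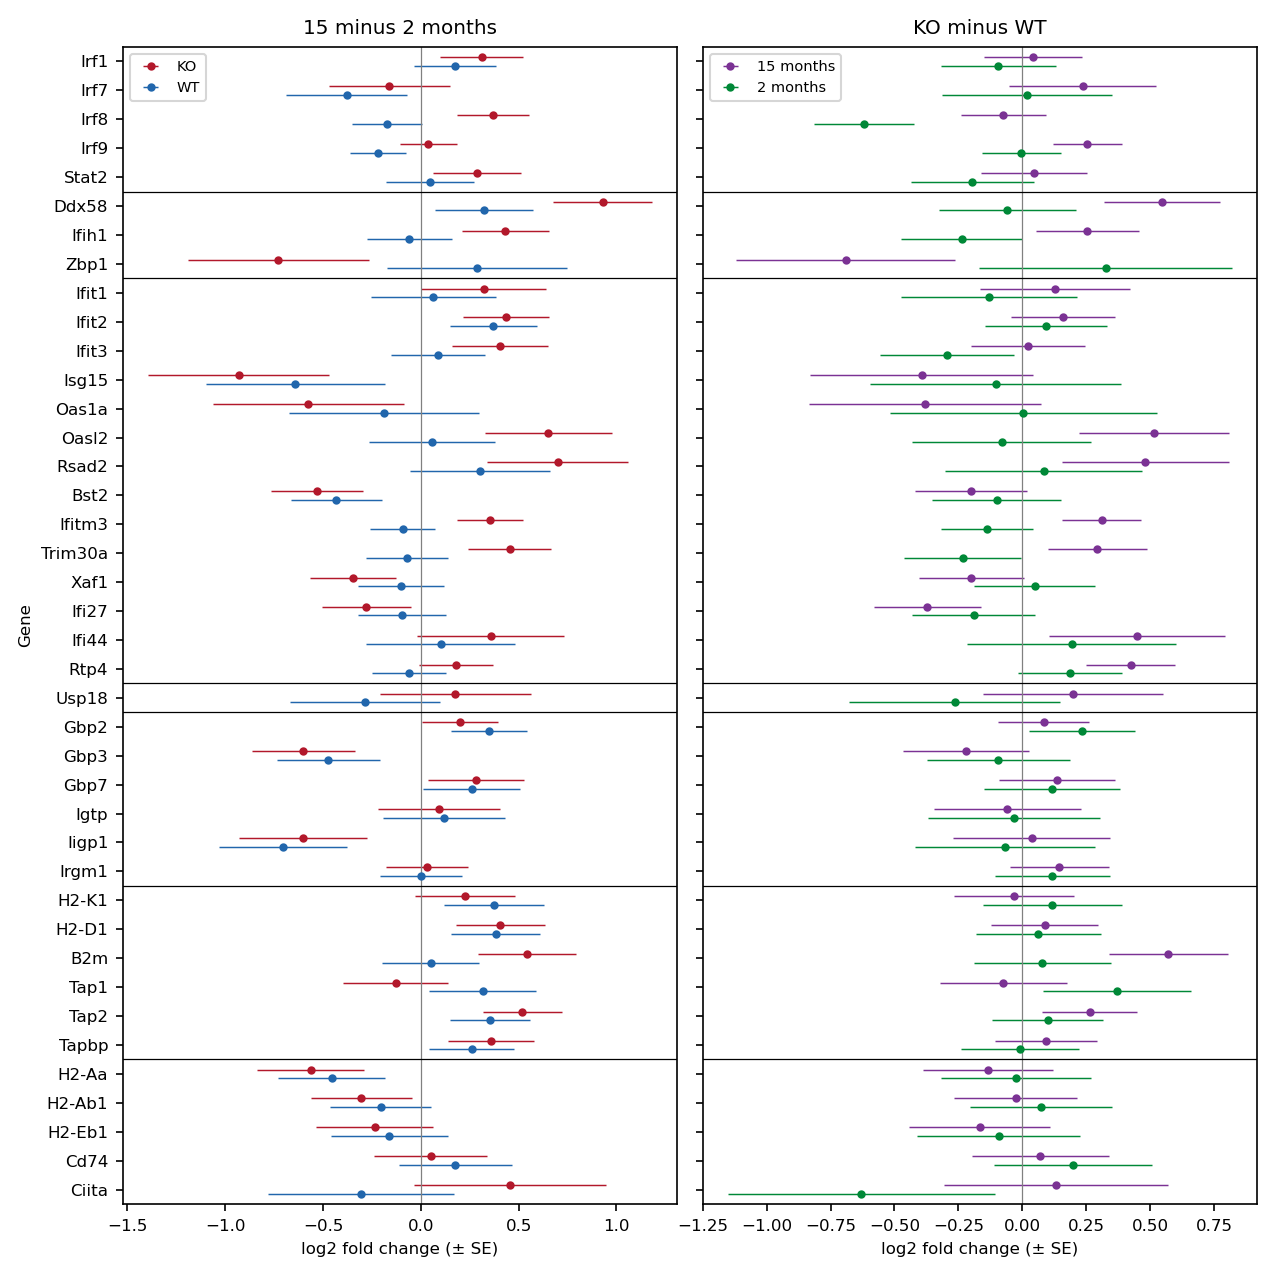
Log2 fold changes of the 40 members with their standard errors, 15 minus 2 months in KO and WT hearts (left) and KO minus WT at 15 and 2 months (right). On the right the values scatter about 0, with Irf8 at 2 months (−0.62) the value farthest from 0 in units of its error; on the left Ddx58 in KO hearts (0.93) stands highest.

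Averaged over both ages, 0 of 40 members passed between genotypes (edgeR), against 1 of all genes (0.00644%), and the median log2 fold change was 0.03 over the members and 0.00 over all genes. Values were above 0 in 22 members, against 50.3% of genes, and below in 18, against 49.7%. The 7 KO hearts lay entirely to 1 side of the 7 WT hearts in 0 members, against 0% of genes above and 0.0193% below. At an unadjusted p under 0.05 were Rtp4 at 0.31 (SE 0.13) and Irf8 at −0.35 (SE 0.13), against 1.31% of genes higher and 1.95% lower (3.26% in all). The other 4 with the smallest p were B2m at 0.33 (SE 0.18), Ifi27 at −0.28 (SE 0.16), Ddx58 at 0.24 (SE 0.18) and Tap2 at 0.18 (SE 0.14). For the difference between the KO effects at the 2 ages, edgeR called 0 members and 0 genes in all (0%), and 0 members had an unadjusted p under 0.05, against 3.72% of all genes (2.21% higher, 1.51% lower). The medians were 0.10 over the members and 0.01 over all genes, and 25 members were above 0, against 50.7% of genes, with 15 below, against 49.3%. After Irf8 the smallest p values there belonged to Ifitm3 at 0.45 (SE 0.24), Trim30a at 0.53 (SE 0.30), Ddx58 at 0.60 (SE 0.35), Ifih1 at 0.49 (SE 0.31) and Zbp1 at −1.02 (SE 0.65). DESeq2 and limma voom called 0 members in either comparison.

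With age, averaged over the genotypes, 4 members passed the test in edgeR, 2 higher and 2 lower at 15 than at 2 months. Over all genes 23.9% passed, 10.8% higher and 13.1% lower. At an unadjusted p under 0.05 stood 4 members higher and 5 lower, against 18.8% and 20.4% of genes (39.2% in all). The RNA sensor Ddx58 and Tap2, the other chain of the peptide transporter, rose, while Bst2 (tetherin, which holds budding viruses on the cell) and the GTPase Gbp3 fell. The median log2 fold change was 0.11 over the members and 0.00 over all genes, with 26 members above 0, against 50.1% of genes, and 14 below, against 49.9%. The 8 hearts at 15 months lay entirely to 1 side of the 6 hearts at 2 months in 0 members, against 1.86% of genes above and 1.4% below.

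Ddx58 (chr4:40203773-40239828, minus strand, GRCm38) was at 7.61, 11.96, 18.7 and 11.9 CPM in KO and 8.58, 6.35, 9.45 and 10.1 CPM in WT hearts at 15 months, against 6.57, 6.52 and 6.75 CPM in KO and 8.41, 6.39 and 5.84 CPM in WT hearts at 2 months. All KO hearts at 15 months were above all KO hearts at 2 months, and the WT ages overlapped. The log2 fold change was 0.63 (SE 0.18, adjusted p = 0.0233, edgeR) on average, 0.93 (SE 0.25, adjusted p = 0.0632) in KO and 0.32 (SE 0.25, adjusted p = 0.441) in WT hearts. Tap2 (chr17:34203527-34216321, plus strand) was at 10.7, 16.7, 21.7 and 15.8 CPM in KO and 14.3, 10.7, 15.3 and 13.9 CPM in WT hearts at 15 months, against 10.002, 12.5 and 11.6 CPM in KO and 11.7, 10.9 and 9.24 CPM in WT hearts at 2 months. Single 15-month hearts of each genotype lay inside the 2-month values, and the log2 fold change was 0.44 (SE 0.14, adjusted p = 0.0406, edgeR).

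Bst2 (chr8:71534255-71537456, minus strand) was at 7.61, 5.25, 5.42 and 5.81 CPM in KO and 5.65, 8.55, 5.52 and 7.89 CPM in WT hearts at 15 months, against 8.23, 8.24 and 9.54 CPM in KO and 6.90, 13.4 and 7.73 CPM in WT hearts at 2 months. The KO ages did not overlap and the WT ages did, with a log2 fold change of −0.48 (SE 0.17, adjusted p = 0.0473, edgeR). Gbp3 (chr3:142560026-142573209, plus strand) was at 6.36, 7.27, 8.61 and 8.37 CPM in KO and 5.69, 11.3, 8.22 and 10.6 CPM in WT hearts at 15 months, against 12.1, 10.6 and 12.2 CPM in KO and 9.23, 19.0 and 9.20 CPM in WT hearts at 2 months. The same pattern of overlap held, and the log2 fold change was −0.54 (SE 0.19, adjusted p = 0.0487, edgeR). Both falls leaned on WT replicate 2 at 2 months: without it the values were −0.31 for Bst2 (adjusted p = 0.158) and −0.32 for Gbp3 (adjusted p = 0.171).

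**Figure D3:**
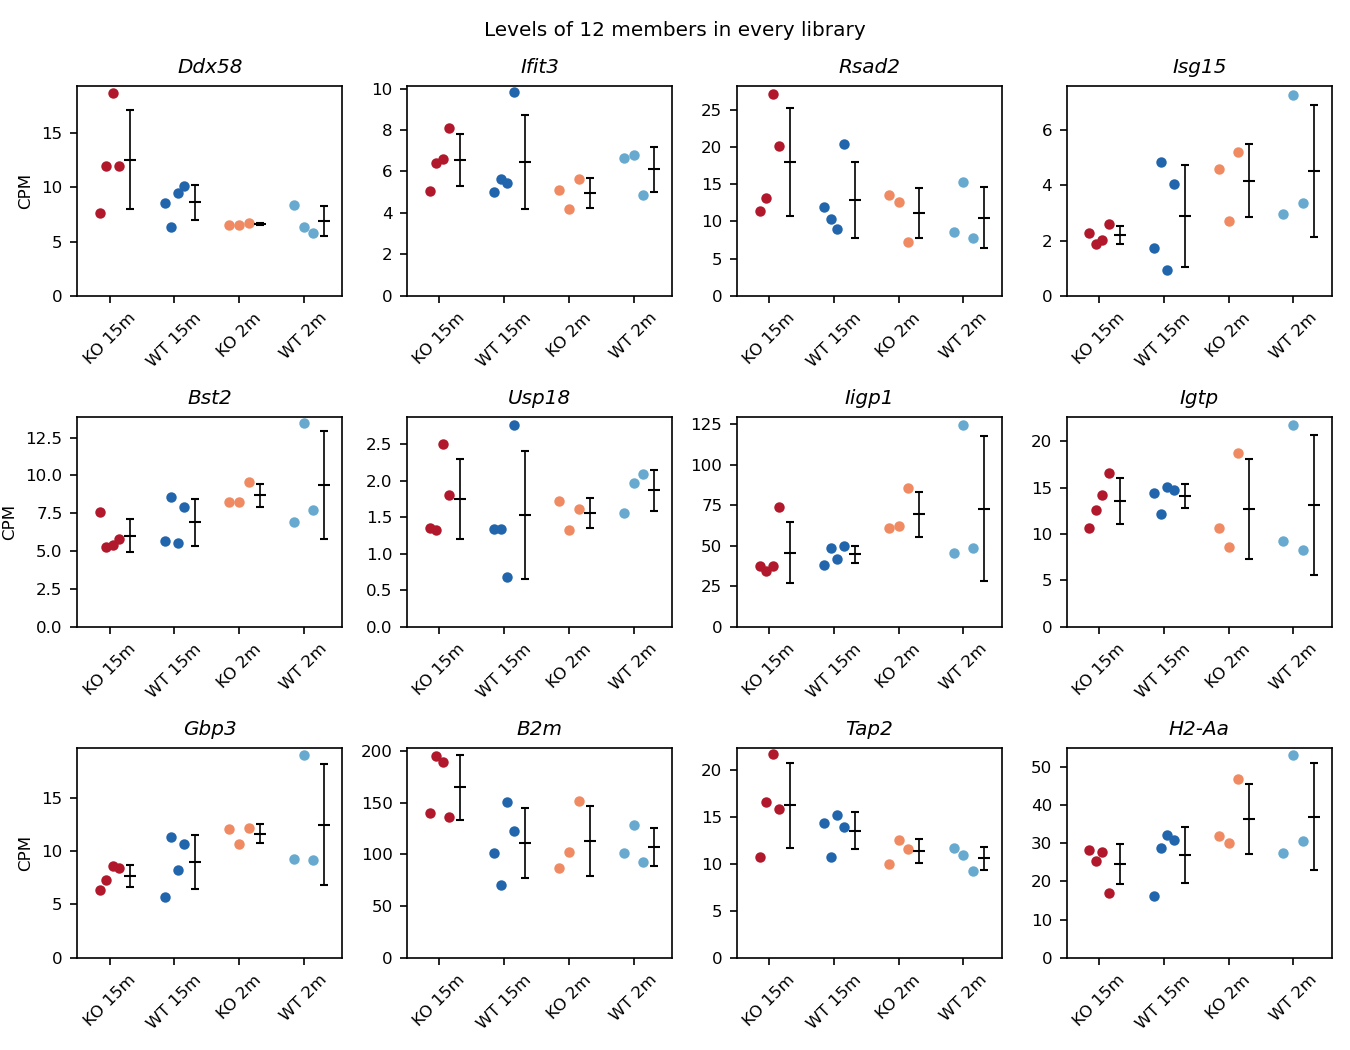
Levels of 12 members in CPM (linear axes from 0) in every library of the 4 groups, with the group mean and SD beside the points. Ddx58 and Tap2 reach their highest points in KO hearts at 15 months (18.7 and 21.7 CPM). Iigp1, Igtp, Gbp3, Bst2, Isg15 and H2-Aa each have 1 high WT heart at 2 months.

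All 4 calls were close to the threshold and depended on the libraries kept. Leaving out 1 library at a time gave 0 to 7 called members, with 0 without WT replicate 2, KO replicate 1 or KO replicate 3 at 2 months and 7 without KO replicate 1 at 15 months. The counts over all genes moved as well, from 1531 without KO replicate 1 at 2 months to 5589 without KO replicate 1 at 15 months. Leaving out both libraries that stood apart gave 9 called members, 5 higher and 4 lower. Ddx58, Tap2, Bst2 and Gbp3 stayed among them, joined by the class I genes H2-D1 (0.49, adjusted p = 0.0190) and Tapbp, tapasin (0.44, adjusted p = 0.0176), the GTPases Gbp2 (0.38, adjusted p = 0.0263) and Iigp1 (−0.73, adjusted p = 0.0315), and the class II chain H2-Aa (−0.63, adjusted p = 0.0277). Over all genes the count was 6211 with those libraries left out, against 3712 with them.

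Exon length, taken as the union of all annotated exons of a gene, was set beside the changes with age. It can exceed the length of any single transcript. The slope of a library's log2 level on log2 exon length was above 0 in 6 of 8 hearts at 15 months (0.045 to 0.189) and below 0 in all 6 hearts at 2 months (−0.148 to −0.0068). Among the members, 9 with exons under 2000 bases had a median log2 fold change with age of −0.19 with 5 below 0, and 31 longer ones had 0.17 with 9 below 0. The Pearson correlation with log2 exon length was 0.29 over the 40 members, which share libraries and are not independent. Bst2 has 903 bases of exon and Ddx58 7050. With the slope of each library in the model, 0 members passed (209 genes in all), and the log2 fold changes were 0.05 for Ddx58, −0.031 for Tap2, −0.035 for Bst2 and −0.28 for Gbp3. The length slope and age largely coincide in these libraries and cannot be told apart.

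**Figure D4:**
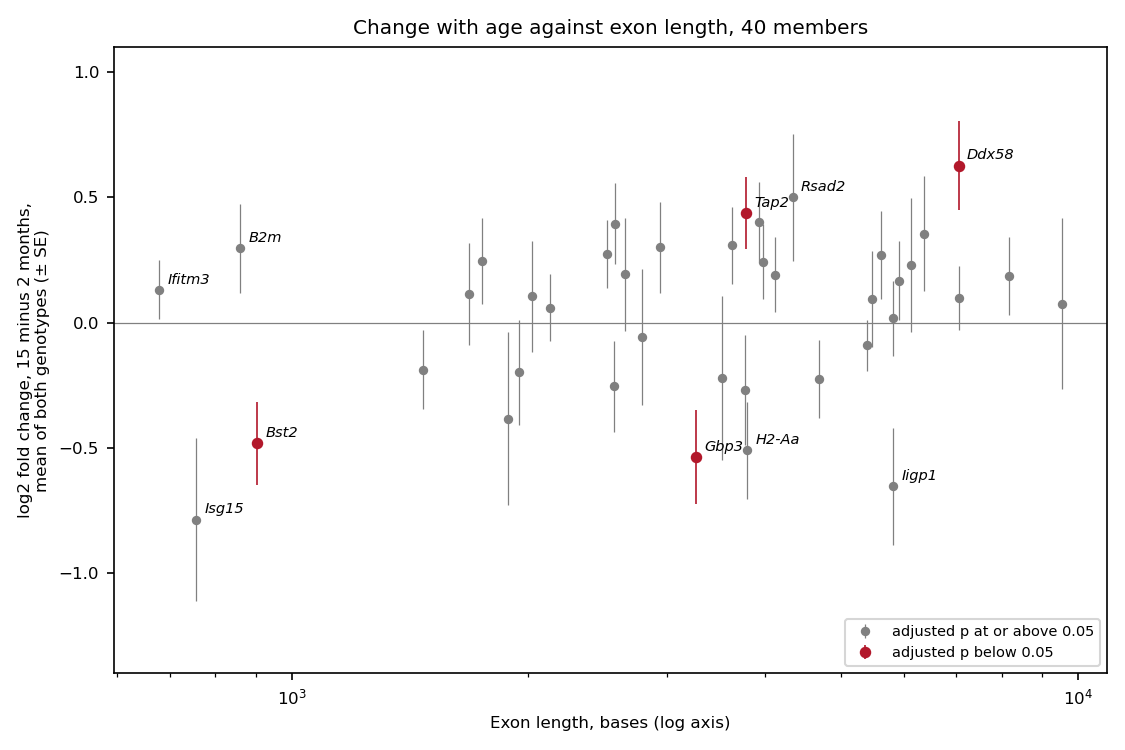
Log2 fold change with age averaged over both genotypes, with its standard error, against exon length in bases on a log axis, for the 40 members; red points passed an adjusted p of 0.05. Of 9 members under 2000 bases 5 lie below 0, Isg15 lowest, and of 31 longer ones 9 lie below 0, Iigp1 lowest.

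Within a genotype no member passed with age. In KO hearts 0 of 40 members passed (edgeR), against 2.25% of all genes (1.07% higher, 1.18% lower), and the median log2 fold change was 0.21 over the members and 0.01 over all genes. At an unadjusted p under 0.05 were 4 higher and 2 lower members, against 12.6% and 14.1% of genes (26.7% in all). Values were above 0 in 27 members, against 50.6% of genes, and below in 13, against 49.4%. Those with the smallest p were Ddx58, Tap2 at 0.52 (SE 0.20), B2m at 0.54 (SE 0.25) and Trim30a at 0.45 (SE 0.21) above 0, and Bst2 at −0.53 (SE 0.23) and Gbp3 at −0.60 (SE 0.26) below. DESeq2 called 1 member, Ddx58 (adjusted p = 0.0124), and limma voom 0. Groups did not overlap in 2 members with 15 months above, Ddx58 and Irf8, and in 4 with 15 months below, Isg15, Bst2, Gbp3 and H2-Aa, against 8.83% and 11.3% of genes. In WT hearts 0 members passed (edgeR, DESeq2 and limma voom), against 1.04% of genes by edgeR (0.612% higher, 0.425% lower), with a median of 0.03 over the members and −0.02 over all genes. At an unadjusted p under 0.05 was Iigp1 at −0.71 (SE 0.33), against 12.7% of genes lower; 0 were higher, against 11.1% (23.8% in all). Values were above 0 in 21 members, against 48.3% of genes, and below in 19, against 51.7%. The next by p were Bst2 at −0.43 (SE 0.23), Gbp3 at −0.47 (SE 0.26), Gbp2 at 0.35 (SE 0.19), Tap2 at 0.35 (SE 0.20) and H2-D1 at 0.38 (SE 0.23). Without overlap were Gbp2 and H2-D1, with 15 months above, and Irf9, with 15 months below, against 8.6% and 7.57% of genes.

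Among the transcription factors, 0 of 5 passed in any comparison, against 23.9% of all genes with age on average and at most 2.25% in the others. Irf7, which amplifies the type I response, was at 5.66, 7.20, 9.90 and 6.56 CPM in KO and 5.10, 8.06, 4.32 and 7.56 CPM in WT hearts at 15 months, and at 8.23, 5.67 and 10.8 CPM in KO and 4.58, 9.13 and 10.7 CPM in WT hearts at 2 months. Irf1, a factor induced by interferon gamma, was at 8.52, 11.6, 18.9 and 14.1 CPM in KO and 11.6, 13.8, 15.0 and 11.5 CPM in WT hearts at 15 months, and at 10.51, 9.97 and 11.8 CPM in KO and 11.9, 12.1 and 10.47 CPM in WT hearts at 2 months. All 4 groups overlapped for both genes. Stat2, which joins Irf9 in the type I complex, was at 6.74, 8.34, 13.2 and 8.46 CPM in KO and 8.85, 9.60, 7.34 and 9.99 CPM in WT hearts at 15 months, and at 8.03, 7.09 and 7.56 CPM in KO and 8.41, 11.2 and 6.49 CPM in WT hearts at 2 months. KO replicate 3 at 15 months was its highest heart. The sensor Zbp1, which binds nucleic acid of the Z form, was at 0.809, 0.556, 0.542 and 0.547 CPM in KO and 0.689, 1.34, 0.520 and 1.40 CPM in WT hearts at 15 months. In the 2-month hearts Zbp1 stood at 1.21, 0.399 and 1.42 CPM in KO and 0.737, 1.13 and 0.580 CPM in WT hearts, from as few as 9 reads. The SE of the Zbp1 log2 fold change between genotypes was 0.49 at 2 months.

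The effectors did not move as a block with age. Bst2 was the single call among 14, against 23.9% of all genes called. Rsad2 (viperin, an antiviral enzyme) was at 11.3, 13.1, 27.2 and 20.2 CPM in KO and 11.99, 10.3, 8.93 and 20.3 CPM in WT hearts at 15 months, and at 13.5, 12.5 and 7.24 CPM in KO and 8.53, 15.3 and 7.73 CPM in WT hearts at 2 months. Ifit1, which binds viral RNA, was at 3.88, 4.38, 6.86 and 5.55 CPM in KO and 3.48, 5.17, 3.02 and 7.37 CPM in WT hearts at 15 months, and at 3.79, 3.77 and 4.89 CPM in KO and 2.95, 6.39 and 4.41 CPM in WT hearts at 2 months. KO replicates 3 and 4 and WT replicate 4 were the high hearts at 15 months for both genes. Its relative Ifit3 was at 5.07, 6.43, 6.62 and 8.12 CPM in KO and 4.996, 5.62, 5.42 and 9.84 CPM in WT hearts at 15 months, and at 5.10, 4.17 and 5.62 CPM in KO and 6.63, 6.81 and 4.87 CPM in WT hearts at 2 months. Isg15 was at 2.27, 1.88, 2.02 and 2.61 CPM in KO and 1.72, 4.84, 0.942 and 4.05 CPM in WT hearts at 15 months, and at 4.60, 2.704 and 5.22 CPM in KO and 2.95, 7.28 and 3.36 CPM in WT hearts at 2 months. The KO ages did not overlap for Isg15, with an average log2 fold change with age of −0.79 (SE 0.33, adjusted p = 0.0899, edgeR), while its WT hearts overlapped between ages. Oasl2, an oligoadenylate synthetase-like protein, was at 3.56, 6.22, 8.73 and 5.55 CPM in KO and 5.37, 2.81, 4.19 and 4.53 CPM in WT hearts at 15 months, and at 4.04, 4.03 and 3.48 CPM in KO and 4.34, 5.73 and 2.24 CPM in WT hearts at 2 months. Ifitm3 was at 25.6, 37.3, 40.1 and 34.1 CPM in KO and 29.2, 22.95, 30.3 and 28.2 CPM in WT hearts at 15 months, and at 26.9, 22.6 and 30.9 CPM in KO and 33.6, 29.1 and 25.8 CPM in WT hearts at 2 months. Both genes peaked in KO replicate 3 at 15 months and overlapped between groups. With age, 9 effectors had values above 0 and 5 below, from −0.79 to 0.50, against 50.1% and 49.9% of all genes. Usp18, which removes Isg15 from proteins and blocks the type I receptor, was at 1.35, 1.32, 2.50 and 1.81 CPM in KO and 1.34, 1.34, 0.682 and 2.76 CPM in WT hearts at 15 months, and at 1.72, 1.33 and 1.62 CPM in KO and 1.55, 1.97 and 2.09 CPM in WT hearts at 2 months, with all groups overlapping.

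The GTPases split with age. Gbp3 was called lower, 1 of 6, against 13.1% of all genes. Iigp1 was also below 0 and the other 4 were above 0. Iigp1, which attacks the vacuoles of intracellular parasites, was at 37.2, 34.4, 37.4 and 73.7 CPM in KO and 38.3, 48.4, 41.9 and 49.6 CPM in WT hearts at 15 months. The 2-month values were 60.6, 62.0 and 85.4 CPM in KO and 45.2, 124 and 48.7 CPM in WT hearts, with an average log2 fold change with age of −0.65 (SE 0.23, adjusted p = 0.0534, edgeR). Single hearts, KO replicate 4 at 15 months and WT replicate 2 at 2 months, lay far above the rest of their groups. Igtp was at 10.7, 12.6, 14.2 and 16.6 CPM in KO and 14.4, 12.2, 15.1 and 14.7 CPM in WT hearts at 15 months, and at 10.6, 8.64 and 18.8 CPM in KO and 9.23, 21.8 and 8.23 CPM in WT hearts at 2 months. WT replicate 2 at 2 months was again the highest heart of all. Igtp overlaps the annotated span of its relative Irgm2 on the same strand. Gbp2, a guanylate-binding protein, was at 10.52, 14.5, 20.9 and 15.8 CPM in KO and 12.99, 14.7, 14.3 and 16.3 CPM in WT hearts at 15 months, and at 12.4, 13.5 and 14.5 CPM in KO and 12.4, 12.7 and 9.27 CPM in WT hearts at 2 months.

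Class I and class II genes stood on opposite sides of 0 with age in most members. All 6 class I genes had log2 fold changes above 0 on average (0.09 to 0.44), against 50.1% of all genes. Tap2 alone was called, against 23.9% of all genes. In class II, H2-Aa, H2-Ab1 and H2-Eb1 were below 0 and Cd74 and Ciita above, from −0.51 to 0.11, with 0 of 5 called. H2-D1, a class I heavy chain, was at 59.2, 109, 119 and 74.4 CPM in KO and 71.5, 84.2, 107 and 78.1 CPM in WT hearts at 15 months, and at 55.5, 64.3 and 85.0 CPM in KO and 68.7, 69.4 and 57.9 CPM in WT hearts at 2 months. All WT hearts at 15 months were above all WT hearts at 2 months, and the log2 fold change was 0.39 on average (SE 0.16, adjusted p = 0.0870, edgeR). H2-K1, another heavy chain, was at 30.7, 54.5, 57.7 and 38.1 CPM in KO and 38.3, 45.6, 60.2 and 41.0 CPM in WT hearts at 15 months, and at 29.6, 31.5 and 55.0 CPM in KO and 35.7, 41.5 and 29.95 CPM in WT hearts at 2 months, and its value was 0.30 (SE 0.18). The ages overlapped in both genotypes. B2m at 2 months was at 86.6, 102 and 151 CPM in KO and 101, 128 and 92.8 CPM in WT hearts, and its change with age was 0.54 (SE 0.25) in KO and 0.05 (SE 0.25) in WT hearts. Tap1 was at 4.15, 4.48, 6.74 and 3.79 CPM in KO and 4.24, 5.82, 5.42 and 4.79 CPM in WT hearts at 15 months, and at 4.55, 5.27 and 5.94 CPM in KO and 2.71, 6.27 and 3.36 CPM in WT hearts at 2 months, with all groups overlapping.

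H2-Aa, a chain of the class II molecule, was at 28.3, 25.3, 27.7 and 16.99 CPM in KO and 16.2, 28.6, 32.2 and 30.8 CPM in WT hearts at 15 months, and at 31.9, 30.1 and 46.9 CPM in KO and 27.4, 53.1 and 30.5 CPM in WT hearts at 2 months. The KO ages did not overlap, and the average log2 fold change was −0.51 (SE 0.19, adjusted p = 0.0680, edgeR). Its partner chain H2-Ab1 was at 24.8, 26.4, 30.3 and 20.02 CPM in KO and 16.6, 31.3, 27.9 and 27.7 CPM in WT hearts at 15 months, and at 27.8, 23.8 and 42.4 CPM in KO and 25.6, 41.8 and 22.3 CPM in WT hearts at 2 months. Both chains were highest in KO replicate 3 and WT replicate 2 at 2 months. Cd74 was at 36.7, 70.4, 84.9 and 41.3 CPM in KO and 37.2, 53.1, 78.0 and 54.0 CPM in WT hearts at 15 months, and at 43.2, 57.3 and 68.6 CPM in KO and 47.2, 57.2 and 43.2 CPM in WT hearts at 2 months. Ciita, which drives the class II genes, was at 1.83, 1.32, 2.08 and 0.547 CPM in KO and 0.999, 1.51, 1.53 and 1.25 CPM in WT hearts at 15 months, and at 1.11, 1.33 and 0.728 CPM in KO and 1.86, 2.57 and 0.541 CPM in WT hearts at 2 months. No group stood apart for Cd74 or Ciita, and Ciita rested on 13 to 69 reads a library. Beside these, the 6 endothelial markers called with age were all higher at 15 months (median of 10 markers 0.55), the macrophage markers had a median of −0.18 with 1 higher and 1 lower call, and 3 of 4 leukocyte markers were below 0 with 1 call. Of the dendritic markers 3 of 4 were above 0 (median 0.51, 0 called), of the B cell markers 4 of 5 were below 0 (median −0.83, 0 called), and the 3 neutrophil markers had a median of −1.57 with 2 lower calls. The part of these cells in the class I and class II values was not tested.

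Co-variation between hearts is described with no test, since libraries share handling, depth and cell makeup. Over the 14 libraries, after the mean of each group was taken out, the mean levels of the effectors went with those of the transcription factors (Pearson r = 0.85), of Usp18 (r = 0.83) and of the sensors (r = 0.83). Class I went with class II (r = 0.69) and with the endothelial markers (r = 0.69). For class I, r was 0.56 with the transcription factors, 0.53 with the GTPases, 0.48 with the sensors and 0.20 with the effectors. It was 0.51 with the fibroblast and 0.36 with the macrophage markers. Usp18, whose own promoter was not read, showed a median r of 0.63 with the 14 effectors, −0.04 with the 6 class I genes and 0.07 with the 5 class II genes. The 4 tested dendritic markers had r = 0.70 with the effectors, r = −0.03 with class I and r = 0.006 with class II. With the effectors, r was 0.54 for the T and NK, 0.49 for the B cell and 0.37 for the leukocyte markers. It was 0.34 for the endothelial, 0.30 for the macrophage, 0.16 for the fibroblast, −0.13 for the heart muscle and −0.33 for the neutrophil markers. With class II the macrophage markers had r = 0.14 and the B cell markers r = −0.19. Among pairs of genes the highest values were H2-D1 with H2-K1 (r = 0.96), H2-D1 with Cd74 (r = 0.95), Gbp7 with Stat2 (r = 0.94), Ddx58 with Tap2 (r = 0.92) and H2-Aa with H2-Ab1 (r = 0.92). The lowest was Bst2 with Tapbp (r = −0.65). Over gene pairs, the GTPases had a median r of 0.49 with effectors, 0.45 with class I and 0.44 with class II. By mean levels, r of the GTPases was 0.79 with the effectors, 0.78 with the transcription factors and 0.69 with the sensors. By the same measure it was 0.53 with class I and 0.54 with class II. Of 780 pairs, 683 were above 0.

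**Figure D5:**
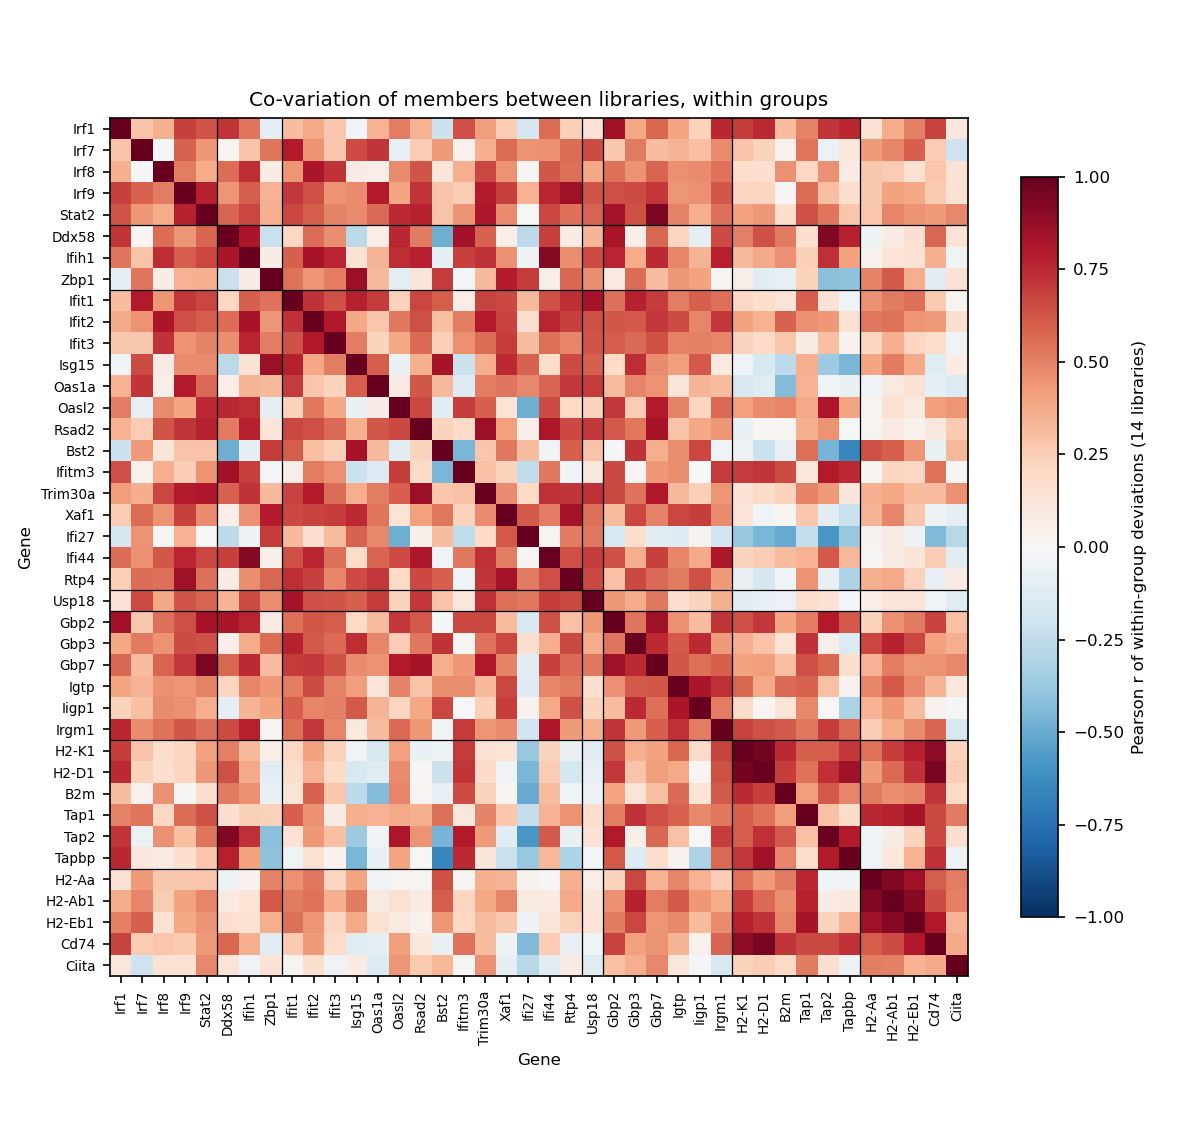
Pearson correlations between all pairs of the 40 members over 14 libraries, after each group's mean was taken out, with genes in the same order of roles on both axes. The effector and GTPase blocks are mostly red, as is the block of class I with Cd74, while Usp18 is near 0 against class I and class II.

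The rest of the pathway was also without a call between genotypes. Of 149 further genes of interferon and antigen presentation, 128 were tested, and 0 passed between genotypes at either age, on average or in the difference between ages (edgeR), against 0.00644% of all genes between genotypes and 0% in the difference. The ligands were at the floor. Of 10 interferon genes, 9 had no read in any library, which allows up to 0.0903 to 0.179 CPM (3 counts, counting error only), and Ifng had 7 reads in 4 libraries. The receptor chains Ifnar1, Ifnar2 and Ifngr1 had log2 fold changes of 0.12 (SE 0.13), 0.14 (SE 0.11) and 0.15 (SE 0.12) at 15 months and of 0.02 (SE 0.15), 0.02 (SE 0.12) and −0.05 (SE 0.14) at 2 months for KO over WT. Nlrc5, the transactivator of class I genes, had a log2 fold change of −0.55 (SE 0.31) at 15 months and −0.29 (SE 0.37) at 2 months. The immunoproteasome subunits Psmb8 and Psmb9 had −0.30 (SE 0.30) and −0.42 (SE 0.30) at 15 months, and 0.02 (SE 0.34) and −0.08 (SE 0.35) at 2 months. Psmb9 overlaps Tap1 on the other strand. The smallest p values at 2 months belonged to the feedback inhibitors Socs3 at −1.63 (SE 0.57) and Socs1 at −1.55 (SE 0.56) and to Eif2ak2, the kinase PKR, at 0.31 (SE 0.14). At 15 months they belonged to Irf2 at 0.35 (SE 0.16), Ptpn6 at 0.57 (SE 0.27) and Lgals3bp at 0.60 (SE 0.28). Beside the Socs genes, 6 of 6 immediate-early genes were below 0 in KO at 2 months, with a median of −1.33 and 0 called. Their sums were 82.5, 67.8 and 93.2 CPM in KO hearts and 222, 59.6 and 158 CPM in WT hearts, so WT replicate 2 lay below all KO hearts and WT replicate 1 was highest. Their part was not tested.

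With age, 19 of the 128 further genes passed on average, 9 higher and 10 lower, against 10.8% and 13.1% of all genes. Whether these calls hold with the length slope in the model or with libraries left out was not examined. The costimulatory ligand Cd86 fell by 1.24 on the log2 scale (SE 0.25, adjusted p = 0.00715, edgeR), with 2.40 ± 0.61 CPM in KO and 2.42 ± 1.02 CPM in WT hearts at 15 months (SD, n = 4 each) and 4.82 ± 1.68 CPM in KO and 6.64 ± 2.43 CPM in WT hearts at 2 months (SD, n = 3 each). Ifi27l2a fell by 1.38 (SE 0.30), to means of 10.9 CPM in KO and 12.9 CPM in WT hearts at 15 months, against 29.2 CPM in KO and 32.5 CPM in WT hearts at 2 months. The guanylate-binding protein Gbp10 rose by 2.11 (SE 0.47), to 3.17 CPM in KO and 3.93 CPM in WT hearts at 15 months, against 0.61 CPM in KO and 1.102 CPM in WT hearts at 2 months. Others that rose were Ifi207 (1.01), H2-Q6 (0.93), Shisa5 (0.62), Gbp5 (0.56), Ifi203 (0.49), Znfx1 (0.49), Jak1 (0.44), a kinase of all interferon receptors, and Dtx3l (0.39). Others that fell were the interferon gamma receptor chain Ifngr2 (−0.59), the adaptor Ticam1 (−0.50), Ifi35 (−0.50), Slfn2 (−0.64), Epsti1 (−0.80), the proteasome activator Psme2 (−0.62), Rfxank (−0.40), a factor of class II promoters, and Ctss (−0.44), the protease that trims Cd74. Within a genotype 0 of these passed with age, against 2.25% of all genes in KO and 1.04% in WT hearts. By p the first 3 were Rfxank, Shisa5 and Gbp10 in KO hearts (−0.59, 1.05 and 2.34) and Cd86, Ticam1 and Gbp5 in WT hearts (−1.46, −0.56 and 0.76).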

How the data were processed

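RNA was measured in 14 whole-heart libraries of 4 groups, with a kit that keeps strand and removes ribosomal RNA (per the labels' protocols). The authors deposited raw counts per Ensembl gene. Per the submitters' processing notes, the tools were featureCounts 1.6.3, STAR 2.7.3a, DESeq2 1.26.0 and cutadapt 1.16, and the build was GRCm38. The sources used here do not give the annotation release, the strand setting or how reads with several places were treated. Symbols, exon lengths and coordinates were taken from GENCODE M21 (GRCm38), where 55227 of 55487 identifiers were found. Promoter sequences are RefSeq's. The table held 0 columns without a sample.

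The whole table was fitted with edgeR 4.0.16 in R 4.3.3. filterByExpr (minimum count 10, minimum total 15) kept 15528 genes, TMM scaled the libraries, and a robust quasi-likelihood model with 1 mean per group was tested over 7 contrasts, Benjamini-Hochberg adjusted over all genes at 0.05. SE is the size of the log2 fold change over the square root of F. CPM uses the TMM-scaled total, and RPKM divides CPM by exon length in kilobases. Exon length is the union of all annotated exons of a gene. The pipeline was checked on simulated counts. Alternatives included DESeq2 1.42.0 and limma 3.58.1. Members, gene lists and the naming rule were all chosen with earlier results of these data known. That rule names every member called, otherwise the 6 with the smallest p, plus fixed genes of each role; of other pathway genes, those called or the 3 with the smallest p, plus a few fixed ones, of which 1 is not reported here.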

Additional observations from a re-analysis of the deposited data

Results flagged for a closer look

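In groups of 4 hearts, 1 library lay farther from its group than the gap that marks an outlier in 5 of the 80 pairs of member and group examined, where chance alone would mark about 4 (1 in 20). Ifit3 was at 9.84 CPM in WT replicate 4 at 15 months, against 4.996 to 5.62 CPM in the other 3 hearts. Trim30a was at 9.80 CPM in the same heart, against 6.65 to 6.69 CPM, and at 12.7 CPM in KO replicate 3 at 15 months, against 7.37 to 8.25 CPM. Iigp1 was at 73.7 CPM in KO replicate 4 at 15 months, against 34.4 to 37.4 CPM. Zbp1 was at 0.809 CPM in KO replicate 1 at 15 months, against 0.542 to 0.556 CPM. All 5 were the highest heart of the group.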

How the results depend on the processing

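No member passed between genotypes, in the difference between ages or with age in WT hearts under any alternative run: other scaling, other filters, DESeq2, limma voom, only the groups compared (not run for the average over ages or the difference, which need all groups), a replicate block, no mitochondrial genes, each library left out, a threshold of 0.1, and a pair chosen after seeing the data (the length slope as a covariate, and leaving out both libraries that stood apart). The median of KO over WT moved between −0.17 and 0.22 at 2 months, with 0.22 without WT replicate 2, and between −0.08 and 0.23 at 15 months as libraries were left out. The other medians moved between −0.04 and 0.10 for KO over WT on average, −0.05 and 0.21 for the difference, −0.13 and 0.14 with age in WT, 0.07 and 0.34 in KO, and 0.07 and 0.24 on average. In KO hearts with age the count of members was 1 without a filter, 1 in DESeq2, 1 at a threshold of 0.1, 0 to 4 with libraries left out in turn (4 without KO replicate 1 and 1 without WT replicate 2, both at 15 months) and 6 without both libraries that stood apart. Averaged over genotypes it was 0 to 7 with libraries left out in turn, 6 in DESeq2, 3 in limma voom, 9 without both, 9 at a threshold of 0.1 and 0 with the length slope, under which Tap2 had −0.031, against 0.44 without it; the cause was not tested. With libraries left out in turn, the counts over all genes were 49 to 3523 in KO hearts with age and 1531 to 5589 averaged over genotypes. Over 23 alternatives Ddx58 was called in 17, and Tap2, Bst2 and Gbp3 in 10 each. The labels do not say that replicate numbers pair the hearts. Same-numbered KO and WT hearts correlated at −0.49 to 0.38, and ages of a genotype at −0.14 to 0.39. Differently numbered hearts were not compared, so these values cannot decide whether the numbers pair them. With a replicate block, members called were 0 in every comparison but the average with age, where 4 were lower (Isg15, Bst2, Gbp3, Iigp1) and 0 higher, against 2 and 2 without the block. The fewest reads in a library were 9 for Zbp1, 13 for Ciita and 13 for Oas1a.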

Other observations

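The ratio of Cd74 to H2-Aa, both in CPM, was 1.30, 2.79, 3.06 and 2.43 in KO and 2.30, 1.85, 2.43 and 1.75 in WT hearts at 15 months, and 1.35, 1.90 and 1.46 in KO and 1.72, 1.08 and 1.42 in WT hearts at 2 months. WT hearts at 15 months lay above WT hearts at 2 months, and the KO ages overlapped through KO replicate 1 at 15 months. The ratio was chosen after the values were seen and was not tested. The ratio of H2-K1 to H2-D1 stayed between 0.483 and 0.648 in all 14 hearts.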
